A study of Mus musculus with 5 samples.

Results

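The genes described here are *Mcc*, *Apc* and 8 regulators of canonical Wnt signalling, namely *Apc2*, *Axin1*, *Axin2*, *Ctnnb1*, *Gsk3b*, *Lef1*, *Tcf7l1* and *Tcf7l2*. They were picked by symbol, and all 10 were found among the 20224 genes of the count table. *Mcc* was selected on its measured difference between the genotypes in these same libraries, so its values are given as a description without a p-value. The other 9 were listed as its pathway with results of these libraries known. The libraries are bulk RNA-seq of sympathetic neurons taken from mouse embryos of non-diabetic pregnancies at E14.5, with 100 eGFP- and tdTomato-positive cells sorted into each. The 2 libraries of the control group are replicates 5 and 6, and the 3 of the *Hif1aCKO* group are replicates 3, 4 and 5. *Hif1a* encodes the oxygen-regulated subunit of the transcription factor HIF-1. By the methods of the study, *Hif1aCKO* embryos were *Hif1a* loxP/loxP with *Isl1Cre*, the tdTomatoAi14 reporter and the *Prph*-eGFP transgene, so that exon 2 of *Hif1a* is removed in cells that have expressed *Isl1*. The control embryos were *Hif1a* loxP/+ with the same Cre, reporter and transgene. The tdTomato reporter is itself switched on by Cre, so the 1 floxed allele of the sorted control cells can be deleted as well. If Cre acted in full, which was not checked, the contrast is between loss of 1 and of 2 alleles. The Cre is inserted in *Isl1*, a gene these neurons themselves use, in both groups, whereas the design text of the series describes controls without Cre. Both sexes were used, on a mixed background.

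Canonical Wnt signalling turns on the fate of β-catenin. Without a Wnt signal, a destruction complex built on the scaffolds APC and AXIN holds β-catenin next to the kinases CK1 and GSK3, which mark it for degradation. A Wnt ligand bound to a Frizzled receptor and its LRP co-receptor disables the complex, and the β-catenin that accumulates joins TCF/LEF proteins on DNA. MCC, named from mutation in colorectal cancer, is a cytoplasmic protein known to bind β-catenin and to restrain this output. In the sympathetic lineage, Wnt signalling and β-catenin are known from the control of neural crest fate and of the proliferation of progenitors and neuroblasts.

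Total counts ranged from 8254211 to 9700887 per library, and every library held a count for 18108 to 18453 genes. The whole-gene count of *Hif1a* does not check the deletion, since exon 2 is a small part of the gene. It was 2082 and 1581 normalized counts in the control libraries and 2741, 1754 and 2130 in the *Hif1aCKO* libraries. *Isl1* stood at 12550 and 13989 against 8615, 7783 and 8703. The 12 sympathetic neuron markers were all detected. Their summed level was 56185 and 68073 normalized counts in control and 51720, 49495 and 49613 in *Hif1aCKO*, lower in all 3. None of the 12 was called by edgeR, 7 had an unadjusted p under 0.05, 5 lay below both controls and 2 above, and DESeq2 called 2. As shares, 58.3% had such a p, 41.7% lay below and 16.7% above. Over all genes these shares were 7.67%, 12.9% and 12.9%, and DESeq2 called 0.388%. *Hif1aCKO* replicate 3 stood apart by Schwann cell precursor markers, with a summed level of 1196 normalized counts over the 5 of 8 markers in the table, against 30.5 to 55.1 in the other 4 libraries. Of mesenchyme, endothelium and sensory neuron markers, each list summed to at most 38.0 in any library. Chromaffin cell markers summed to 8452 and 11184 in control and to 3114, 7648 and 3995 in *Hif1aCKO*, and the 2 of 5 motor neuron markers in the table to 664 and 887 against 297, 317 and 536. These 2 sums, like that of the sympathetic markers, were lower in all *Hif1aCKO* libraries, and their part in the results was not tested. The markers inside them did not all move alike. *Chgb* was at 5502 and 8677 normalized counts in control and at 775, 4722 and 1104 in *Hif1aCKO*. *Pnmt*, at low counts, was also lower in all *Hif1aCKO* libraries, while *Chga* and *Htr3a* overlapped. Of the motor neuron markers, *Slc18a3* was lower in all *Hif1aCKO* libraries and *Chat* overlapped. Female libraries, by *Xist*, were control replicate 5 and *Hif1aCKO* replicate 3, and male libraries, by *Ddx3y*, were control replicate 6 and *Hif1aCKO* replicates 4 and 5. Normalized counts are counts scaled by TMM (trimmed mean of M values) to a common library size.

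Of the 10 genes, *Mcc* alone stood well above control in all *Hif1aCKO* libraries, and *Gsk3b* alone lay below both controls in all 3 of them. The other 8 overlapped between the genotypes. To be called, a gene needed an adjusted p-value below 0.05 in the quasi-likelihood test of edgeR, a log2 fold change beyond 0.3 and a mean of at least 50 normalized counts. None of the 10 was called, and neither was any of the 15032 genes tested (0%), whose smallest adjusted p-value was 0.446. At an unadjusted p under 0.05 the test passed 7.67% of all genes and none of the 8 genes tested besides *Mcc*. Of all genes tested, 12.9% lay above both controls in every *Hif1aCKO* library and 12.9% lay below, beside 1 of the 9 genes tested in each direction. The 1 above was *Mcc*, whose place there was fixed by its choice, so nothing is read from that count. Of the other 8 tested, 0 lay above and 1, *Gsk3b*, lay below, which is near the share of all genes. DESeq2, with the same thresholds, called 60 of 15477 genes (0.388%), and *Mcc* was the only one of the 10. That call is of the contrast that put *Mcc* on the list, and nothing is read from it. Among the 9 genes that passed the filter on low counts, log2 fold changes were above 0 in 4 and below 0 in 5, with a median of -0.02, beside 0.01 over all genes. *Tcf7l1* did not pass the filter.

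**Figure D1:**
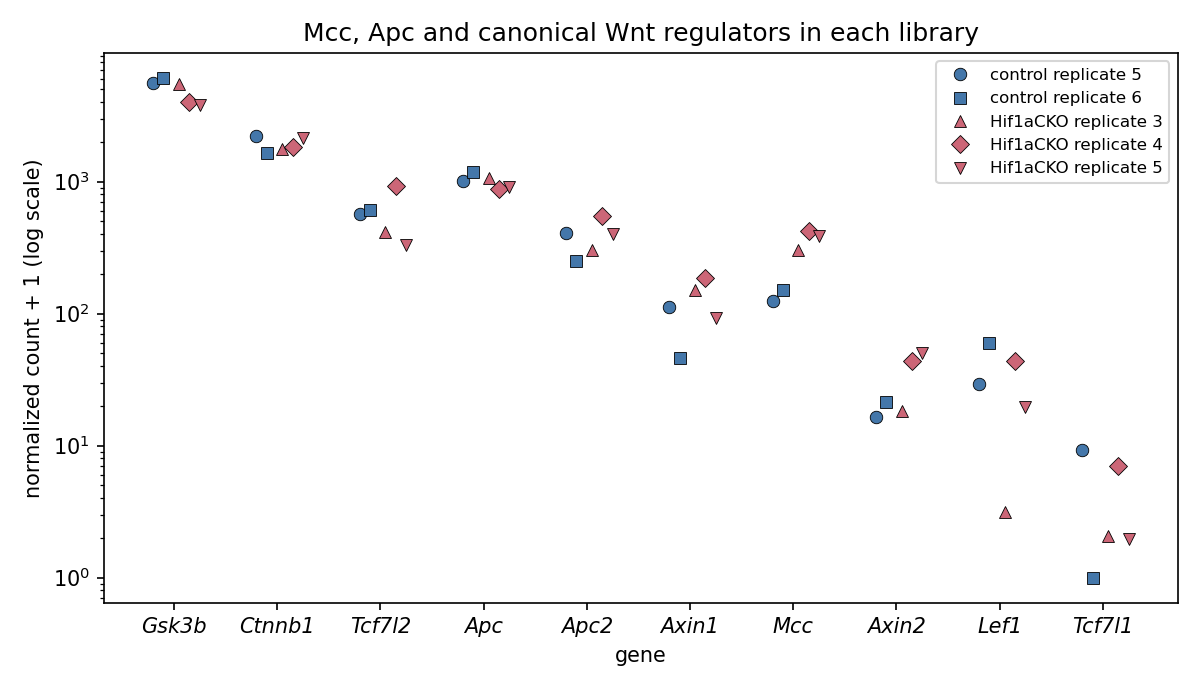
Normalized count plus 1 of each of the 10 genes (log axis), 1 point per library, with 2 control libraries in blue and 3 Hif1aCKO libraries in red. The red points lie above both blue points for Mcc and below them for Gsk3b, and the other 8 genes overlap.

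*Mcc* (ENSMUSG00000071856) lies on chromosome 18 at 44425060 to 44812182, on the minus strand of GRCm38. It was at 124 and 149 normalized counts in control replicates 5 and 6, and at 302, 420 and 387 in *Hif1aCKO* replicates 3, 4 and 5. All *Hif1aCKO* libraries were therefore above both controls, and the highest library exceeded the lowest by 1.2-fold in control and by 1.39-fold in *Hif1aCKO*. *Mcc* was listed for its difference in these same libraries. The gap, the SE and the ranges that follow describe that difference and are no support for it. The means were 136 ± 17.9 (SD, n = 2) and 370 ± 60.9 (SD, n = 3), and the fitted log2 fold change was 1.44 (SE 0.27), which is 2.71-fold. Leaving out single libraries moved it between 1.31 and 1.57. Within the female libraries the log2 ratio was 1.28, and within the male libraries it was 1.43. In raw reads, *Mcc* had 119 and 161 counts against 282, 421 and 399. *Hif1aCKO* replicate 3, which carried the Schwann cell precursor markers and was the only female library of its group, was the lowest of the 3 for *Mcc*. Without it the log2 fold change was 1.56. The part of Schwann cell precursors in the *Mcc* values was not tested. In bulk libraries of this kind, more or fewer cells with a transcript and more or less of it per cell cannot be told apart.

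The antisense gene *A930012L18Rik* lies inside *Mcc* and shares 618 bases of its exons, or 4.24% of the exonic bases of *Mcc*. Its raw counts were 3 and 5 in the control libraries and 15, 8 and 13 in the *Hif1aCKO* libraries. The counting was run at the defaults of Rsubread, which ignore strand and assign a read that overlaps both genes to neither. The reads in the shared bases were not analysed here, and their part in the difference of *Mcc* was not tested. *Apc* lies 10.1 Mb away on the same chromosome. Within 1 Mb of *Mcc*, 9 other genes passed the filter, 6 with higher and 3 with lower values in *Hif1aCKO*. None had an unadjusted p under 0.05 by edgeR, beside 7.67% of all genes. Their log2 fold changes ran from -0.66 for the pseudogene *AC121957.1* to 1.62 for *A930012L18Rik*. The 2 closest protein-coding neighbours overlapped between the groups. *Dcp2*, which encodes an mRNA decapping enzyme, was at 238 and 119 normalized counts in control and at 119, 167 and 201 in *Hif1aCKO*. *Ythdc2*, an RNA helicase gene, was at 153 and 149 in control and at 249, 138 and 181 in *Hif1aCKO*. The potassium channel gene *Kcnn2* (log2 fold change 0.33), *Jakmip2* (0.02), *Eif3j2* (0.96) and the antisense gene *A330093E20Rik* (0.15) overlapped too. The noncoding *AC156546.1* was lower in all 3 *Hif1aCKO* libraries, with a log2 fold change of -0.53 (SE 0.36, adjusted p = 0.755).

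The genes whose profile over the 5 libraries was most like that of *Mcc* were ranked by Pearson's r of log2 normalized counts with a pseudocount of 1. The 5 closest of 10838 genes were *Gm20208*, a noncoding transcript (r = 0.999), *Cnot11*, a subunit of the CCR4-NOT deadenylase (0.996), *Incenp*, a scaffold of the chromosomal passenger complex in mitosis (0.994), *Cyth2*, an exchange factor for ARF proteins (0.994), and *Rrp12*, a ribosome maturation factor (0.994). The 5 libraries fall into 2 groups, and 126 genes had r above 0.95, so the ranking describes these libraries only. The differences of these genes were smaller than that of *Mcc*, with log2 fold changes from 0.27 for *Cyth2* to 0.86 for *Incenp*. *Incenp* stood at 342 and 416 normalized counts in control and at 612, 722 and 731 in *Hif1aCKO*. Among the other 9 genes of the pathway set, r with *Mcc* was highest for *Axin2* (0.785) and lowest for *Gsk3b* (-0.827). Genes of the G2/M phase of the cell cycle also moved with genotype: 50 of the 52 listed were higher in *Hif1aCKO*, with a median log2 fold change of 0.54 beside 0.01 over all genes, and 38 of 52 lay above both controls in every *Hif1aCKO* library. None of the 52 was called by edgeR, 34 had an unadjusted p under 0.05 and DESeq2 called 14. So 65.4% had such a p and 73.1% lay above both controls, beside 7.67% and 12.9% of all genes, of which DESeq2 called 0.388%. The list includes genes that the study itself reported as raised in these same libraries, so these counts in part restate that report. Their summed level was 86783 and 72289 normalized counts in control and 108058, 129441 and 104439 in *Hif1aCKO*. Their part in the difference of *Mcc*, or in any other value here, was not tested.

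**Figure D2:**
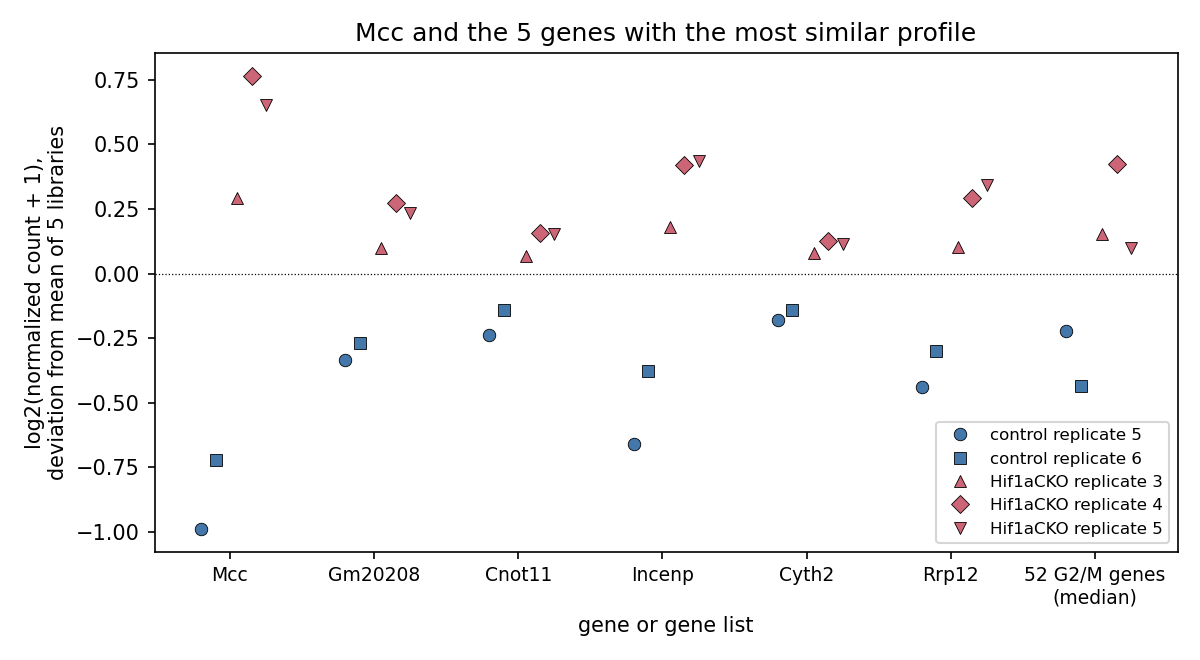
Deviation of log2(normalized count + 1) from its mean over the 5 libraries for Mcc, the 5 genes with the most similar profile and the median of 52 G2/M genes, 1 point per library, controls in blue and Hif1aCKO in red. The control points lie below 0 and the Hif1aCKO points above 0 in every column, and Mcc has the widest gap of those shown.

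The scaffolds of the destruction complex did not differ beyond the spread between libraries. APC, encoded by *Apc*, is the tumour suppressor that binds AXIN and β-catenin and also microtubules. *Apc* was at 1010 and 1177 normalized counts in control and at 1062, 879 and 911 in *Hif1aCKO*. The groups overlapped, with 2 of the 3 *Hif1aCKO* libraries below both controls. The log2 fold change was -0.20 (SE 0.17, adjusted p = 0.81), with a 95% interval from -0.59 to 0.19, and among female libraries alone the log2 ratio was 0.07. *Apc2*, the paralog best known from neurons, was at 407 and 250 normalized counts in control and at 302, 543 and 401 in *Hif1aCKO*. The 2 controls differed from each other by 1.63-fold, and all but replicate 4 of *Hif1aCKO* lay between them. This gave a log2 fold change of 0.34 (SE 0.32, adjusted p = 0.841). Without control replicate 5 it was 0.73, and without control replicate 6 it was 0.02. Per kilobase of exons, *Apc2* made 36.6% and 23.3% of the summed *Apc* and *Apc2* level in control and 28.9%, 46.9% and 38.6% in *Hif1aCKO*, which overlap.

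AXIN1 is the scaffold whose level limits assembly of the complex. *Axin1* was at 110 and 45.4 normalized counts in control and at 150, 183 and 92.2 in *Hif1aCKO*. Control replicate 6 was the lowest library and *Hif1aCKO* replicate 5 lay between the 2 controls. The log2 fold change was 0.87 (SE 0.49, adjusted p = 0.715), and its 95% interval from -0.26 to 2.00 leaves the size poorly set. It depended on both controls, at 0.36 without replicate 6 and 1.64 without replicate 5. *Axin2*, a feedback inhibitor that Wnt signalling itself induces and a common readout of the pathway, was low, at 15.6 and 20.4 normalized counts in control and at 17.1, 42.9 and 49.5 in *Hif1aCKO*. Replicates 4 and 5 of *Hif1aCKO* were above both controls and replicate 3 lay between them. Its log2 fold change was 1.02 (SE 0.76, adjusted p = 0.777), from 15 to 51 raw counts per library. Within the female libraries it was 0.13 and within the male libraries 1.14. *Axin2* made between 7.36% and 27.2% of the summed per-kilobase level of the pair, and a control and a *Hif1aCKO* library were found near each end.

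GSK3β is the kinase that phosphorylates β-catenin in the complex and also acts in insulin and growth factor signalling. *Gsk3b* was at 5555 and 6082 normalized counts in control and at 5498, 4026 and 3817 in *Hif1aCKO*. All 3 *Hif1aCKO* libraries lay below both controls, although replicate 3 lay closer to the lower control than the controls lay to each other. The log2 fold change was -0.39 (SE 0.17, adjusted p = 0.654), with a 95% interval from -0.78 to 0.0024. DESeq2 gave an adjusted p of 0.465. The value ran from -0.57 without *Hif1aCKO* replicate 3 to -0.29 without replicate 5. Within the female libraries the log2 ratio was -0.01, and within the male libraries it was -0.63. The paralog *Gsk3a* was at 86.3 and 120 normalized counts in control and at 122, 231 and 205 in *Hif1aCKO*, with a log2 fold change of 0.85 (SE 0.38, adjusted p = 0.66). The share of *Gsk3a* in the per-kilobase level of the pair, computed after these values were seen, was 5.00% and 6.29% in control and 6.99%, 16.3% and 15.4% in *Hif1aCKO*. Replicate 3 again lay next to the controls.

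β-Catenin, encoded by *Ctnnb1*, is both the carrier of the Wnt signal and a component of adherens junctions. *Ctnnb1* was at 2208 and 1646 normalized counts in control and at 1765, 1812 and 2122 in *Hif1aCKO*. All 3 *Hif1aCKO* libraries lay between the 2 controls. Between genotypes the log2 fold change was -0.02 (SE 0.17, adjusted p = 0.988), and its 95% interval from -0.42 to 0.38 bounds a change of transcript level in either direction more closely than for most genes here. The sign turned with the library left out and with upper-quartile scaling. Exons of *Ulk4* on the opposite strand share 14.6% of the exonic bases of *Ctnnb1*, and *Ulk4* had 892 and 684 counts in control and 638, 821 and 888 in *Hif1aCKO*. As transcripts were measured, these values say nothing of the amount or location of β-catenin protein, at which the pathway mainly acts.

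**Figure D3:**
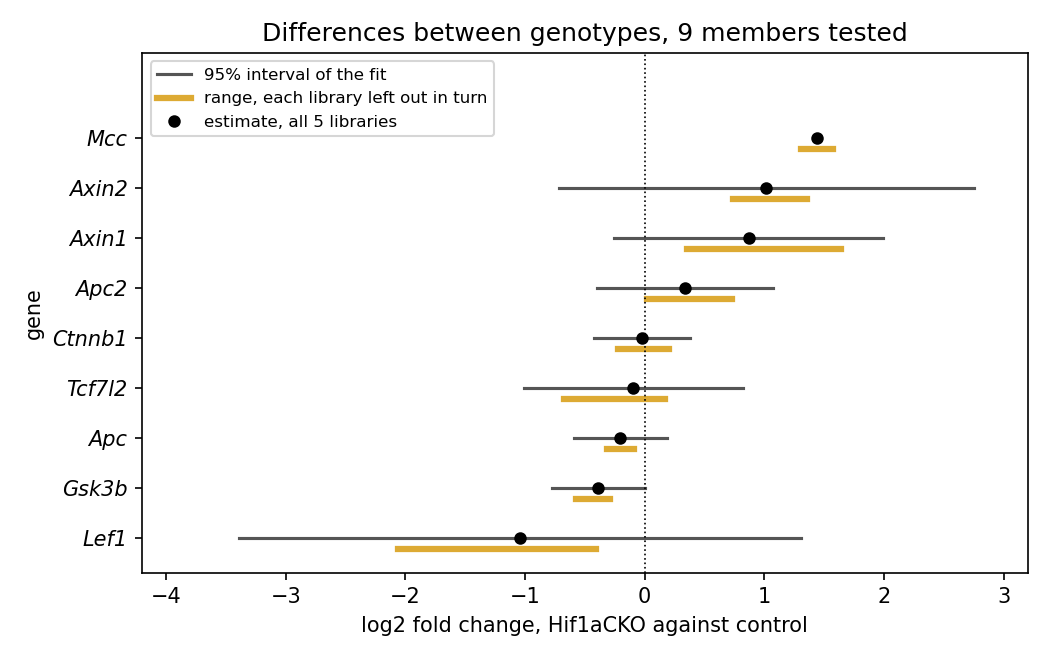
Log2 fold change of Hif1aCKO against control for the 9 genes tested: dots are the estimates from all 5 libraries, grey lines the 95% intervals of the fit, and yellow bars the range over fits without a single library. No interval is drawn for Mcc, which was chosen for its difference and has an estimate of 1.44, and those of the other 8 genes include 0.

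The TCF/LEF proteins bind DNA and recruit β-catenin. Of the 4 in the genome, *Tcf7l2* made most of the summed per-kilobase level in every library. *Tcf7l2* was at 570 and 613 normalized counts in control and at 415, 917 and 328 in *Hif1aCKO*. The controls lay within 1.08-fold of each other, and the *Hif1aCKO* libraries spread over 2.79-fold on both sides of them. The log2 fold change was -0.10 (SE 0.40, adjusted p = 0.973), and it was -0.67 without *Hif1aCKO* replicate 4 and 0.17 without replicate 5. *Lef1* was at 28.1 and 59.2 normalized counts in control and at 2.14, 42.9 and 18.4 in *Hif1aCKO*. Replicate 4 of *Hif1aCKO* lay between the controls and the other 2 were below them, with only 2 raw counts in replicate 3. The fit gave a log2 fold change of -1.04 (SE 1.02, adjusted p = 0.852), with a 95% interval from -3.39 to 1.31, and without *Hif1aCKO* replicate 3 it was -0.51, while without control replicate 6 it was -0.41 and without *Hif1aCKO* replicate 4 it was -2.06. An antisense gene, *Gm43352*, shares 13.7% of the exonic bases of *Lef1* and had 17 and 21 counts in control and 0, 6 and 3 in *Hif1aCKO*. *Tcf7l1*, best known as a repressor of Wnt targets in stem cells, had 8 and 0 raw counts in control and 1, 6 and 1 in *Hif1aCKO*. A count of 0 in control replicate 6 allows up to 3 counts, or 2.78 normalized counts, by counting error alone. At these counts no difference in *Tcf7l1* was detectable.

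The share of *Tcf7l2* in the 4 TCF/LEF genes was 83.5% and 81.1% in control and 98.1%, 94.2% and 56.0% in *Hif1aCKO*. The 3 *Hif1aCKO* libraries thus lay on both sides of the controls. *Tcf7*, which is not among the 10 genes, made 9.68% and 11.1% in control, and in *Hif1aCKO* 0.845% in replicate 3, 0% in replicate 4 and 40.4% in replicate 5. Its normalized counts were 19.8 and 25 in control and 1.07, 0 and 70.9 in *Hif1aCKO*. With the longest transcript as length, the highest share of *Tcf7* in any library was 23.4%, and its mean over the 5 libraries was 6.75% in place of 12.4%. *Lef1* made between 0.505% and 7.83% of the sum, and *Tcf7l1* at most 2.73%.

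Promoter sequences were read for the members because the deleted gene encodes a DNA-binding factor, whose core site is ACGTG or, with another first base, GCGTG, and because *Axin2* and *Lef1* are textbook targets of TCF/LEF factors. The RefSeq table on GRCm38.p6 held 15 windows for 7 of the 10 genes, and *Mcc*, *Apc* and *Axin1* had no entry. In the 250 bases before each start, on either strand, 5 windows of 4 genes held a HIF core (*Lef1*, *Tcf7l1*, *Ctnnb1* and *Tcf7l2*), a motif found in 38.6% of all 32851 windows. The *Ctnnb1* windows with a core overlap and hold the same site. Of the 250 bases, 209 of the *Tcf7l1* window and 178 of the downstream *Ctnnb1* window lie in annotated exons. A TCF/LEF site, searched on either strand as CTTTGAA, as the form CTTTGAT, as the form CTTTGTA and as the form CTTTGTT, was in 3 windows of 3 genes (*Lef1*, *Apc2* and *Tcf7l2*), and in 14.8% of all windows. In the *Apc2* window with this site, 195 of the 250 bases lie in annotated exons. In the 4 windows that follow, all on the plus strand and printed 5′ to 3′, capitals mark these motifs, and CACGT, like the letters CACGC, is the HIF core read on the other strand. They show the leading TCF/LEF gene with 2 cores, β-catenin with 1, the inducible *Axin2* with neither motif, and an internal start of *Lef1* with both. The *Tcf7l2* cores lie 182 and 55 bases before the start and the *Ctnnb1* core 70 bases before it. The *Lef1* core is the palindrome CACGTG, so it counts on both strands. A match is a description of letters, not a bound site.
Tcf7l2, chr19:55741560-55741809: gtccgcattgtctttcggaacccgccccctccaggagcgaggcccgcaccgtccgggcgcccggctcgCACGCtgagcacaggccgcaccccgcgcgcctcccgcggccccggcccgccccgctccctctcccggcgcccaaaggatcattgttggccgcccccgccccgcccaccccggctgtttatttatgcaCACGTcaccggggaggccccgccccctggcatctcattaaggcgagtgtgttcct
Ctnnb1, chr9:120933150-120933399: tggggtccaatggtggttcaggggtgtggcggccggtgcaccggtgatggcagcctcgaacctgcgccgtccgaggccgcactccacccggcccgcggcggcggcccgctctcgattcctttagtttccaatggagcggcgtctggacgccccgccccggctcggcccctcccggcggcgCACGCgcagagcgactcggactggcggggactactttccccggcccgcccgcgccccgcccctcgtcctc
Axin2, chr11:108920099-108920348: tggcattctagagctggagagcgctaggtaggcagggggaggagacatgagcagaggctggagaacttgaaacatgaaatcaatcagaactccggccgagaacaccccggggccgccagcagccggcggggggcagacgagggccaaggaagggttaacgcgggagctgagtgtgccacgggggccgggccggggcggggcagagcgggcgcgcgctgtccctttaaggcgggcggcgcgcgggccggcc
Lef1, chr3:131156044-131156293: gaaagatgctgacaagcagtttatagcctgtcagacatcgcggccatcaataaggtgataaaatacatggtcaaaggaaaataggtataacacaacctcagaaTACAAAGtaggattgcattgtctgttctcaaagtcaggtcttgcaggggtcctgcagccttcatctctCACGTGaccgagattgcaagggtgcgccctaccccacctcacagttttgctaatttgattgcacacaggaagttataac

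Between genes, levels were compared as normalized counts per kilobase of merged exons. *Gsk3b* was the highest at a mean of 508 over the 5 libraries, followed by *Ctnnb1* at 368. Their ranges overlapped, and both lay above *Tcf7l2* (64.8) in every library. The ranges of *Tcf7l2* and *Apc* (62.5) overlapped, and *Apc* lay above *Apc2* (33.7) without overlap. *Apc2*, *Axin1* (30.4) and *Mcc* (18.9) overlapped from one to the next, as did *Mcc* with *Axin2* (5.28), *Axin2* with *Lef1* (3.43) and *Lef1* with *Tcf7l1* (0.833). The per-kilobase level of *Mcc* averaged 9.35 ± 1.23 (SD, n = 2) in the control libraries while *Hif1aCKO* libraries averaged 25.4 ± 4.18 (SD, n = 3). In control this mean was below that of *Axin1* at 20.3 ± 12.0 (SD, n = 2), and in *Hif1aCKO* it was still below that of *Axin1* at 37.0 ± 12.0 (SD, n = 3). The order held for the means only, since *Mcc* lay above *Axin1* in *Hif1aCKO* replicate 5. With the length of the longest transcript in place of merged exons, *Mcc* (35.2) passed *Axin1* (30.8) and *Lef1* (8.24) passed *Axin2* (6.83). On that scale *Tcf7l2* (153) also stood further above *Apc* (78.7).

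**Figure D4:**
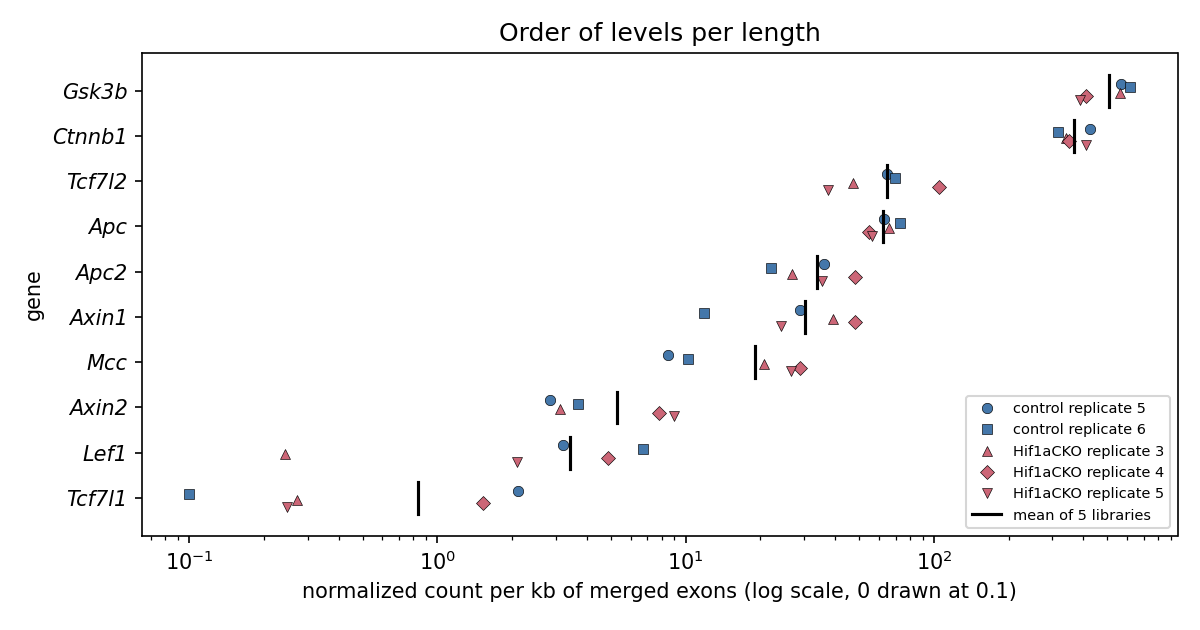
Normalized count per kb of merged exons (log axis, 0 drawn at 0.1) of the 10 genes, ordered by their mean over the 5 libraries (black bars), 1 point per library, controls in blue and Hif1aCKO in red. Gsk3b and Ctnnb1, with means of 508 and 368, stand apart from the other 8 genes, of which the highest mean is 64.8.

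The rest of the pathway was described from lists of Wnt genes by role. Of 125 genes listed besides the 10, 93 were in the table and 75 passed the filter. Among these 75, 45 were higher and 30 lower in *Hif1aCKO*, with a median log2 fold change of 0.04 beside 0.01 over all genes, where 51.3% were higher. None was called by edgeR, 4 had an unadjusted p under 0.05 (5.33%, beside 7.67% of all genes) and DESeq2 called 1, *Ccnd1*. Of the 75, 6 lay above and 8 below both controls in all *Hif1aCKO* libraries, which is 8% and 10.7% beside 12.9% for each direction over all genes.

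Of 26 ligand and secretion genes, only 10 were in the table and 6 were tested, 3 higher and 3 lower. The highest per kilobase were *Ndp* (109), which encodes the Frizzled-4 ligand norrin, and *Porcn* (54.9), the acyltransferase that Wnt proteins need for secretion. *Ndp* was at 196 and 184 normalized counts in control and at 186, 386 and 104 in *Hif1aCKO*, which overlap. Of the receptors, 5 of 9 tested were higher and 4 lower. The highest were *Fzd3* (116 per kilobase), a Frizzled best known for axon guidance and growth in sympathetic and other neurons, and *Ryk* (53.9), a co-receptor. *Fzd3* was at 1827 and 1657 normalized counts in control and at 1582, 1261 and 1097 in *Hif1aCKO*. All 3 *Hif1aCKO* libraries lay below the controls, with a log2 fold change of -0.41 (SE 0.18, adjusted p = 0.664). Of the surface inhibitors, 5 of 9 were higher and 4 lower. *Sfrp1* (71.2 per kilobase), a secreted Frizzled-like decoy, had a log2 fold change of 0.11. *Dkk3* (44.3 per kilobase), a divergent member of the Dickkopf family, was at 176 and 347 normalized counts in control and at 120, 11 and 91.3 in *Hif1aCKO*. The gap between the groups was smaller than the spread inside each, and the log2 fold change was -1.82 (SE 0.75, adjusted p = 0.636).

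Of 25 cytoplasmic genes, all tested, 15 were higher and 10 lower, with a median of 0.01. The highest per kilobase were *Ppp2r1a* (1114), a scaffold subunit of phosphatase PP2A, with a log2 fold change of -0.22 (SE 0.13, adjusted p = 0.715), and *Csnk1a1* (436), the CK1α kinase that primes β-catenin, with -0.05 (SE 0.12, adjusted p = 0.953). *Csnk1a1* varied little in any library, from 4174 to 4829 normalized counts. Of 17 nuclear genes tested, 14 were higher (82.35%, beside 51.3% of all genes) and 3 lower, with a median log2 fold change of 0.25. None of the 17 was called by edgeR or DESeq2, and 1 (5.88%) had an unadjusted p under 0.05, beside 7.67% of all genes. The list had 3 genes (17.65%) above both controls in every *Hif1aCKO* library and 0 below, beside 12.9% of all genes for each direction. *Cby1* (328 per kilobase), a β-catenin antagonist, was at 0.0009 on the log2 scale, and the corepressor gene *Ctbp1* (295) at 0.40 (SE 0.25, adjusted p = 0.735). *Tle4*, a Groucho corepressor that binds TCF/LEF proteins, was at 814 and 1187 normalized counts in control and at 853, 574 and 536 in *Hif1aCKO*. Replicate 3 of *Hif1aCKO* lay between the controls and the other 2 below them, with a log2 fold change of -0.61 (SE 0.26, adjusted p = 0.637).

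**Figure D5:**
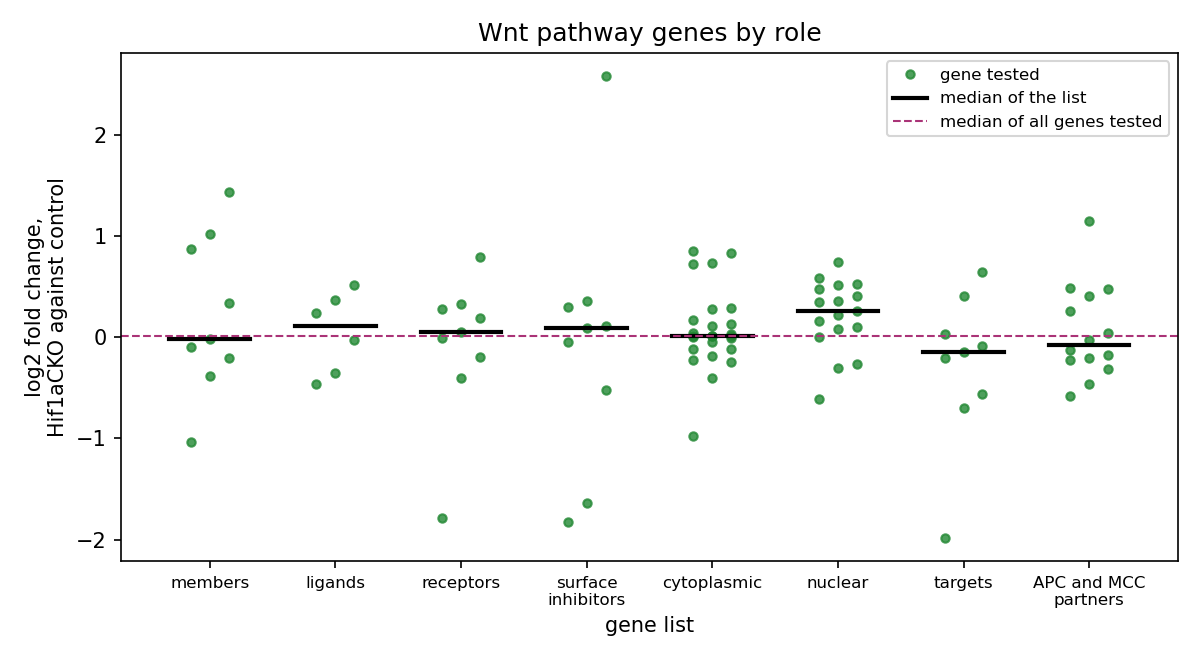
Log2 fold change of Hif1aCKO against control for each gene tested (green dots) in the set of 10 (members) and in lists of other Wnt genes by role and of APC and MCC partners, with the median of each list (black bars) and of all genes tested (dashed line, 0.01). Points of each list lie on both sides of 0, and the nuclear list has the highest median at 0.25.

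Of the pathway's known targets besides *Axin2* and *Lef1*, 3 of 9 tested were higher and 6 lower, with a median log2 fold change of -0.14. *Ccnd1*, which encodes cyclin D1 and was the most abundant, at 4678 per kilobase, stood at 30750 and 23834 normalized counts in control and at 19017, 18377 and 18175 in *Hif1aCKO*. All 3 *Hif1aCKO* libraries lay below both controls and close to each other. Its log2 fold change was -0.56 (SE 0.11), with an adjusted p of 0.567 by edgeR and 0.0194 by DESeq2, so its call rests on the tool. *Myc* was at 998 and 1730 normalized counts in control and at 1041, 785 and 690 in *Hif1aCKO*, and replicate 3 lay between the controls. Its log2 fold change was -0.70 (SE 0.27, adjusted p = 0.621). *Mycn* (857 per kilobase), the family member that drives neuroblast growth, had a log2 fold change of -0.09 (SE 0.18, adjusted p = 0.948). Targets that feed back on the pathway, *Axin2* and *Lef1* among them, were tested in 9 cases, with 2 higher, 7 lower and a median of -0.20. The higher ones made 22.2%, beside 51.3% of all genes. The lower ones include *Znrf3* at only -0.04 and *Lef1* at low counts, and all 9 overlapped between the groups. None had an unadjusted p under 0.05, beside 7.67% of all genes. The highest of them per kilobase were *Znrf3* (34.6), a ubiquitin ligase that removes Frizzled receptors, and *Lgr5* (26.1), an R-spondin receptor. *Znrf3* was level, at 289 and 267 normalized counts in control and at 271, 286 and 252 in *Hif1aCKO*. *Lgr5* was at 233 and 349 in control and at 229, 206 and 325 in *Hif1aCKO*.

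Of 14 genes whose proteins bind APC or MCC or work with them at microtubules and cell junctions, 6 were higher and 8 lower, with a median log2 fold change of -0.08, and none was called by edgeR or DESeq2. The highest per kilobase were *Mapre1* (952) and *Mapre2* (535), the EB proteins that track microtubule plus ends. *Mapre1* had a log2 fold change of -0.17 (SE 0.11, adjusted p = 0.732) and *Mapre2* of -0.32 (SE 0.16, adjusted p = 0.698). *Dlg1*, a PDZ scaffold that binds the end of APC, was at 31.2 and 56.5 normalized counts in control and at 106, 109 and 78.6 in *Hif1aCKO*. All 3 *Hif1aCKO* libraries lay above both controls, with a log2 fold change of 1.15 (SE 0.47, adjusted p = 0.627). It was the single gene of this list at an unadjusted p under 0.05, which is 7.14% beside 7.67% of all genes. In the list, 3 genes lay above both controls in every *Hif1aCKO* library and 2 below, or 21.4% and 14.3%, beside 12.9% of all genes for each direction.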

How the data were processed

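Reads came from 5 libraries of 100 sorted cells each, made with a low-input kit and sequenced on an Illumina NextSeq instrument. Per the submitters' processing notes and the methods of the study, the authors trimmed reads with cutadapt (version 1.18) and Trimmomatic, removed ribosomal and vector sequence with Bowtie (version 1.2.2) and SortMeRNA, mapped the rest to GRCm38 with STAR (version 2.7.0c), and counted uniquely mapped reads with Rsubread. What they deposited is the raw count of each gene in each library. Rsubread was run at its defaults, which ignore strand and assign reads that overlap more than 1 gene to none. Names, exon lengths and positions came from GENCODE M21 on GRCm38, which held 20195 of the 20224 identifiers.

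The quasi-likelihood test of edgeR (version 4.0.16; R version 4.3.3) was run on the counts after filterByExpr and TMM scaling, *Hif1aCKO* against control with no covariate. Adjusted p-values are those of Benjamini and Hochberg over 15032 genes. The study used DESeq2, run here as an alternative (version 1.42.0), as was limma (version 3.58.1). Calls needed an adjusted p under 0.05, a log2 fold change beyond 0.3 and a mean of at least 50 normalized counts. Each library is 1 biological sample by the labels. Replicate numbers match in only 1 case between groups, and no batch is given in the labels. The scripts were tested on simulated counts. The members and gene lists were chosen with earlier results of these data known. Named were all members, of each list the genes at an unadjusted p under 0.05 with a mean of at least 50 normalized counts (4 at most) and the 2 highest per kilobase, the 5 genes most like *Mcc*, its neighbours within 1 Mb, and *Hif1a*, *Isl1*, *Xist* and *Ddx3y* as checks. *Gsk3a* and *Tcf7* were named as paralogs, and all chromaffin and motor neuron markers in the table were named to show the parts of their sums. A zero count was taken to allow up to 3 counts, and this floor covers counting error only.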

Additional observations from a re-analysis of the deposited data

How the results depend on the processing

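The numbers of calls changed with the test. DESeq2 called 60 of 15477 genes (0.388%) and the likelihood ratio test of edgeR called 40, against 0 by the quasi-likelihood test. Each of these 2 tests called 1 of the 10 members, *Mcc*. As *Mcc* was listed for its difference in these same libraries, nothing is read from those calls. DESeq2 called 1 further Wnt pathway gene, *Ccnd1*. Without a single library, the number of genes called ran from 0 to 4, with the 4 found without control replicate 5, and that of members and of Wnt pathway genes stayed at 0. With 1 control library left, that library was assumed to vary like the *Hif1aCKO* libraries. RLE and upper-quartile scaling, limma-voom, no filter, and a filter of at least 10 counts in every library gave 0 calls. *Mcc* ran from 1.28 to 1.57 on the log2 scale over all 14 alternatives. Signs turned for 4 members, none of them called. *Apc* was at 0.073 and *Apc2* at -0.43 within the female libraries, a split chosen after seeing the data. *Ctnnb1* was at 0.014 with upper-quartile scaling and 0.25 within the male libraries, and ran from -0.22 without control replicate 6 to 0.20 without control replicate 5, above 0 also without *Hif1aCKO* replicate 3 or 4. *Tcf7l2* ran from -0.67 without *Hif1aCKO* replicate 4 to 0.17 without replicate 5, and was above 0 also without replicate 3. With the length of the longest transcript, the per-kilobase level moved by more than 1 SD for *Mcc*, *Apc*, *Ctnnb1* (527), *Lef1* and *Tcf7l2* (153). The cause of these changes was not tested. With a pseudocount of 5, the same 5 genes were most like *Mcc*. No paired analysis was possible because the labels give no litter or pair. With 2 against 3 libraries and under 65 counts per library, *Axin2*, *Lef1* and *Tcf7l1* were limited by depth.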
